A study of Mus musculus with 12 samples.

Results

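Immediate early genes are transcribed within minutes of a stimulus, without the need for newly made protein. This account follows 10 of them, Arc, Fos, Fosl2, Egr1, Egr2, Dusp1, Dusp6, Btg2, Junb and Nr4a1, in mouse brain and liver at 3 times after death. They were chosen by name, with earlier results of these data known, so their counts beside all genes are a description and not a test. The brightest probe set of each gene, by its mean in all 12 arrays, stood for it. The 10 genes had 13 probe sets, with 2 each for Btg2, Egr2 and Fosl2, out of 17097 genes with a probe set of their own. All 10 were among the 13073 genes tested, which lay at or above the median of the array in at least 3 arrays. For some of the 10 this was met only in brain.

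The tissues came from male BALB/c mice aged 10 weeks, with no genetic change or drug treatment given in the labels. Liver and brain were taken after 18 h at 4°C, after 3 h at room temperature, or just after death (0 h), which served as the control. Because temperature differed between the later times, time and storage temperature cannot be told apart. Each condition was preserved as an FFPE block, fixed in 10% formalin for 24 h, embedded in paraffin, stored for 7 d and cut into sections of 10 μm, or as fresh-frozen (FF) tissue placed in RNAlater. The 12 conditions had 1 array each. The sources used here do not say how many animals lay behind an array, or whether FFPE and FF pieces came from the same animals, so the FFPE and FF arrays that stood in for replicates of a time may share an animal.

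Values are log2 intensities after robust multi-array averaging, and a difference of 1 is a doubling of intensity. Array medians lay at 4.8 to 4.89 in FFPE and at 4.65 to 4.68 in FF arrays. The tissues carried their own markers: 4 neuron genes averaged 4.69 to 5.33 in liver arrays against 9.80 to 11.27 in brain arrays, and 12 hepatocyte genes averaged 12.31 to 12.52 in liver against 5.17 to 7.26 in brain. The 7.26 belonged to the FF brain array at 0 h alone, while the other 5 brain arrays lay at 5.17 to 5.38. By this mean that array stood apart, and results that rest on it are also given without it. At 3 h against 0 h in brain, 11 of the 12 genes were lower in both preservations, with a median of -0.46 in FFPE and -2.58 in FF. Ttr is counted both among these 12 genes and among the choroid plexus markers. In whole tissue, fewer cells of a type and less RNA per cell cannot be told apart.

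In neurons, synaptic calcium signals and growth factors act through MAP kinases and calcium-dependent kinases on the factors SRF and CREB, which bind CArG boxes and cAMP response elements in front of immediate early genes. The products have several roles. Fos, Fosl2 and Junb form AP-1 dimers, Egr1 and Egr2 are zinc-finger factors, and Nr4a1 is an orphan nuclear receptor, so all of these carry the signal on to later genes. Dusp1 and Dusp6 are phosphatases that switch MAP kinases off again, Btg2 is an antiproliferative regulator of mRNA decay and transcription, and Arc is a synaptic protein that drives removal of AMPA receptors.

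To look for motifs such as CArG boxes and cAMP response elements, the members' start regions were read from RefSeq (GRCm38.p6), where 8 of the 10 genes matched. The 5 sequences shown are those that hold most of the motif matches. They are the 250 bases before the start, 5′ to 3′ along the gene, and capitals mark TGACG, the core of a cAMP response element, on either strand, and the CArG box of Egr2.
Fos (chr12:85473640-85473889, plus strand): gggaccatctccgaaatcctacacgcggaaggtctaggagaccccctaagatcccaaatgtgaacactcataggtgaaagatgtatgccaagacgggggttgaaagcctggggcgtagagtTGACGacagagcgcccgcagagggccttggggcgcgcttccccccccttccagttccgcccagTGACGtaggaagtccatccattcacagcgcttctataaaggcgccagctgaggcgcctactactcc
Egr2 (chr10:67537619-67537868, plus strand): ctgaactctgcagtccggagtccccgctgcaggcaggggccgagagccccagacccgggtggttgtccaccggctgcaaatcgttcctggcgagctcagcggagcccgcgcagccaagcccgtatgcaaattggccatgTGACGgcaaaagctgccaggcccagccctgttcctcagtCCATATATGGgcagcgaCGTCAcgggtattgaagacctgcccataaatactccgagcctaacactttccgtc
Nr4a1 (chr15:101266596-101266845, plus strand): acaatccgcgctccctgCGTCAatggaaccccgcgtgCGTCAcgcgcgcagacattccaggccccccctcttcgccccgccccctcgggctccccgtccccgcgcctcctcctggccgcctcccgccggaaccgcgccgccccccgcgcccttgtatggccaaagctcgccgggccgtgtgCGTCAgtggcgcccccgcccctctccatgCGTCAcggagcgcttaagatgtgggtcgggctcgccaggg
Dusp1 (chr17:26508473-26508722, minus strand): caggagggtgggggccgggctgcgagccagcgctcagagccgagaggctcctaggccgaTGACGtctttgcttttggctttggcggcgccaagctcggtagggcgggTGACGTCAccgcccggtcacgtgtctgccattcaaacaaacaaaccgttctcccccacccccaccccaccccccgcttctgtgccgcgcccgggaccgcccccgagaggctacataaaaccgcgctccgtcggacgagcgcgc
Btg2 (chr1:134079156-134079405, minus strand): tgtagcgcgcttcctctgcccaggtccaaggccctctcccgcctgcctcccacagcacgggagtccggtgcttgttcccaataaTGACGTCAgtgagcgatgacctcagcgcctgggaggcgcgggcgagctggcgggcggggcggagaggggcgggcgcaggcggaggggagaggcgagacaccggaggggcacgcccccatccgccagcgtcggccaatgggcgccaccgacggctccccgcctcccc
TGACG or its complement stood in the 250 bases before the start of 6 of the 8 matched genes, which are Fos, Egr2, Dusp1, Btg2, Junb and Nr4a1. In the same 250 bases it stood in 17.8% of all 32851 promoter windows and 19.8% of 27025 genes. In Fos the matches began 129 and 66 bases before the start. Nr4a1 held 4, all on the other strand, at 233, 213, 69 and 40 bases before the start. The full palindrome TGACGTCA, which contains TGACG on both strands, occurred in Dusp1 at 143 bases and in Btg2 at 166 bases before the start, against 1.55% of windows. A CArG box was found in Egr2 only, 72 bases before the start shown, against 1.47% of windows and 1.62% of genes. Egr2 had 5 windows and every other matched gene 1. The Egr2 window shown is the first that held both a CArG box and TGACG. The EGR-type motif GCGGGGGCG was found in Fosl2 and Nr4a1, against 2.57% of windows. Both strands were searched for every motif, and a match describes letters, not binding. A gene without a match lacks only these letters in those 250 bases.

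**Figure D1:**
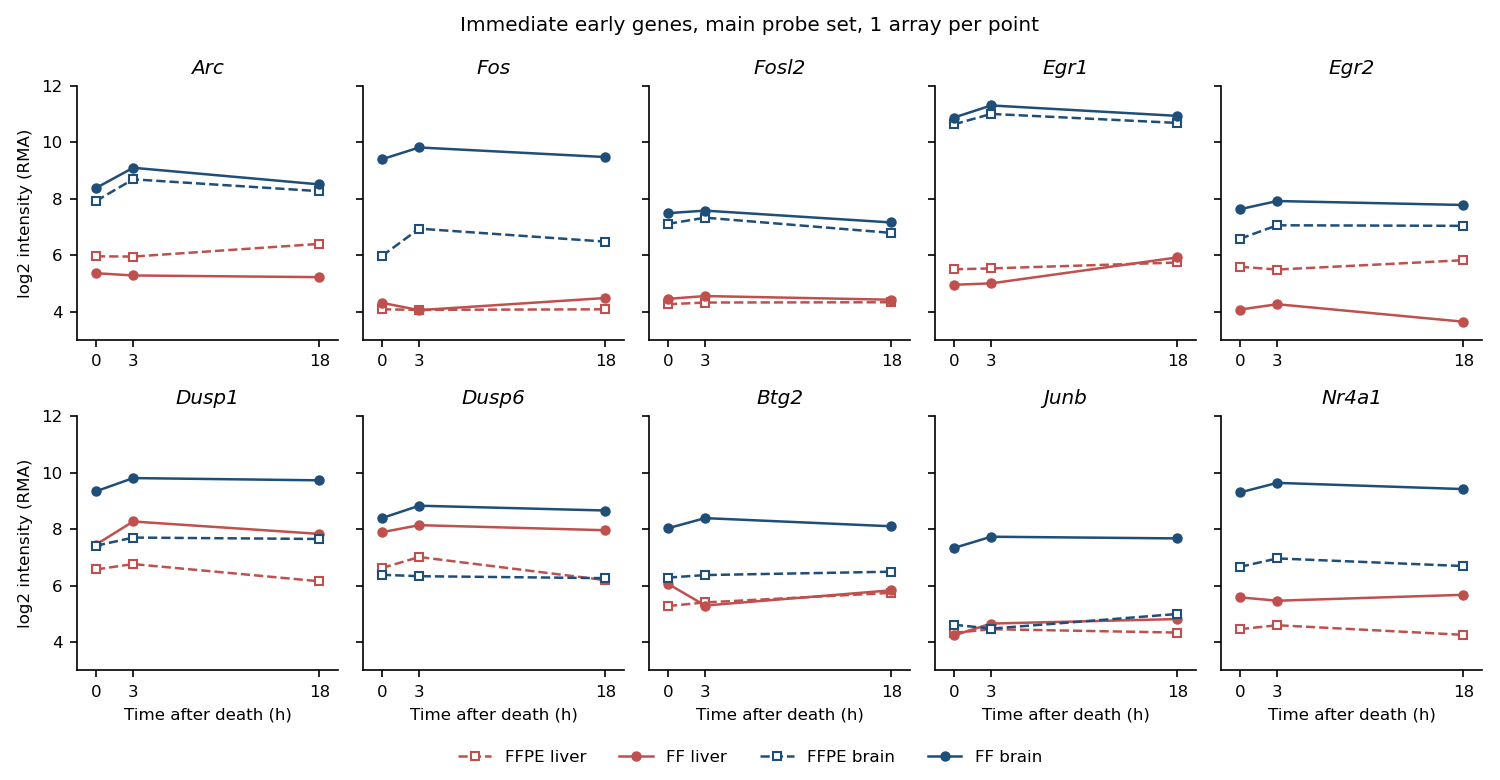
Level of each gene (y axis, log2 intensity of the main probe set) at 0, 3 and 18 h after death (x axis, to scale) in FFPE liver, FF liver, FFPE brain and FF brain, with 1 array per point. Brain series sit above liver series for Fos, Egr1 and Nr4a1, and 7 of the 10 genes peak at 3 h in both brain series.

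The design asks how expression differs with the interval after death. At 3 h against 0 h, the brain values of all 10 genes were higher in FF and those of 8 were higher in both FFPE and FF, against 28.9% of all genes tested. The median difference of the 10 genes was 0.35 on the log2 scale (0.29 in FFPE and 0.41 in FF), while the median of all genes tested was 0.02. None of the 10 passed limma's test at an adjusted p of 0.05, which 0.0765% of genes did. 3 of the 10, Arc, Fos and Egr1, were higher at an unadjusted p under 0.05, against 2.91% of all genes. The differences are thus given as values, and none is a call. Because the members were chosen with earlier results of these data known, the shares of all genes beside their counts are a description.

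Among the AP-1 genes, Fos had 5.97, 6.94 and 6.48 in FFPE brain and 9.40, 9.82 and 9.48 in FF brain at 0, 3 and 18 h. Its 3 h value was the highest of its series under both preservations. The fitted 3 h difference was 0.70 ± 0.16 (SE; 0.97 in FFPE and 0.42 in FF), with an adjusted p of 0.2904 and 27 of the 13073 genes above it. Fosl2 had 7.11, 7.33 and 6.79 in FFPE brain and 7.49, 7.58 and 7.16 in FF brain. Its 3 h difference was small, at 0.16 ± 0.13, and its 18 h value was the lowest in both series. The second probe set of Fosl2 was dimmer, at 4.55 to 5.31 in brain, and had a 3 h difference of -0.05 ± 0.17. Junb, the AP-1 partner of Fos proteins, had 7.33, 7.73 and 7.67 in FF brain, but 4.61, 4.47 and 4.99 in FFPE brain, where 2 of the 3 arrays were below their own median. Its 3 h difference was -0.14 in FFPE and 0.40 in FF, so the direction was not shared. Without the FF brain array at 3 h, the fitted Junb difference was -0.15.

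Both zinc-finger genes were highest at 3 h under both preservations. Egr1, an activity marker of neurons, had 10.64, 11.01 and 10.69 in FFPE brain and 10.88, 11.31 and 10.94 in FF brain. Both series were highest at 3 h and back within 0.06 of the 0 h value at 18 h. The fitted 3 h difference was 0.40 ± 0.18 with an adjusted p of 0.9451. Egr2, known in mice for hindbrain and Schwann cell development, had 6.58, 7.06 and 7.04 in FFPE brain and 7.63, 7.92 and 7.78 in FF brain. Its second probe set gave 6.04, 6.77 and 6.34 in FFPE brain and 6.69, 7.26 and 6.84 in FF brain. Both probe sets were highest at 3 h. The fitted differences were 0.39 ± 0.20 on the main probe set and 0.65 ± 0.15 on the second, with an adjusted p of 0.2709 for the second when every probe set was tested. The nuclear receptor gene Nr4a1 had 6.66, 6.96 and 6.69 in FFPE brain and 9.30, 9.64 and 9.42 in FF brain. Its 3 h differences of 0.30 in FFPE and 0.34 in FF lay close together although its levels in the preservations were far apart.

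Of the phosphatases, Dusp1 had 7.41, 7.70 and 7.65 in FFPE brain and 9.34, 9.81 and 9.73 in FF brain. Its 18 h values stayed near the 3 h ones, and the fitted difference was 0.38 ± 0.18 at 3 h and 0.32 ± 0.18 at 18 h. Dusp6, which acts on ERK in the cytoplasm, had 6.38, 6.33 and 6.26 in FFPE brain and 8.39, 8.83 and 8.66 in FF brain. It was higher at 3 h in FF only, by 0.44, against -0.05 in FFPE. Without the FF brain array at 0 h, the fitted value for Dusp6 was -0.025. Btg2 had 6.28, 6.37 and 6.49 in FFPE brain and 8.03, 8.39 and 8.10 in FF brain, with a fitted 3 h difference of 0.23 ± 0.20. Its second probe set stood at 5.67, 5.59 and 5.55 in FFPE brain and at 5.77, 6.10 and 6.19 in FF brain, so the probe sets disagreed in FFPE.

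Arc had the largest 3 h difference of the 10. It had 7.92, 8.69 and 8.27 in FFPE brain and 8.38, 9.10 and 8.51 in FF brain at 0, 3 and 18 h. The differences of 0.77 in FFPE and 0.72 in FF agreed to within 0.05, and the fitted value was 0.75 ± 0.16 with an adjusted p of 0.2115. In all, 23 genes had a larger difference. As percentiles of all genes tested, Arc and Fos stood at 99.8, Egr1 at 98.2, Egr2 at 97.9, Dusp1 at 97.8, Nr4a1 at 95.8, Btg2 at 90.1, Dusp6 at 86.8, Fosl2 at 81.1 and Junb at 76.6.

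**Figure D2:**
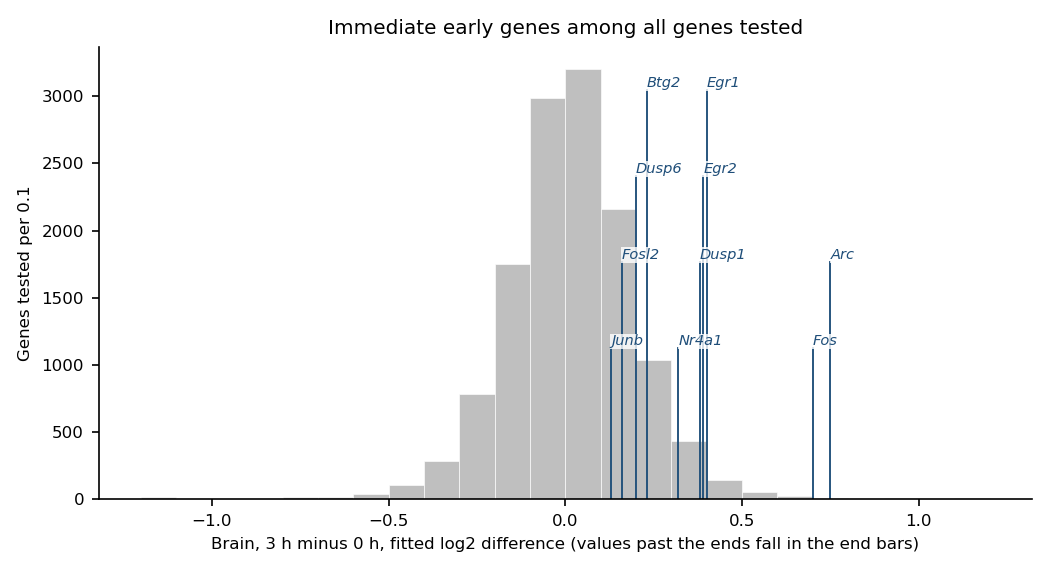
Fitted log2 difference of brain at 3 h minus 0 h (x axis) for all 13073 genes tested (grey bars, number of genes per 0.1 on the y axis), with a labelled line for each of the 10 immediate early genes, whose height carries no value. All 10 lines lie above 0, and Arc and Fos lie in the upper tail of the bars with 0.75 and 0.70, where 23 and 27 genes had larger differences.

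Leaving out 1 array showed where these values rest. The median of the 10 genes at 3 h was 0.29 without the FF brain array at 0 h, and 9 of the 10 genes were then above 0. It was 0.33 without the FF brain array at 3 h, and between 0.35 and 0.40 without any 1 of the other arrays. The lowest adjusted p of any member over all alternatives was 0.07472.

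Other transcript groups of brain also differed between the 0 h and 3 h arrays. Of all genes tested, 28.9% were higher and 22.8% lower at 3 h in both preservations. Choroid plexus markers were higher at 3 h in both preservations in 6 of 7 genes, with a median of 0.92 and an array mean of 4.79, 6.02 and 5.75 in FFPE and 4.79, 6.36 and 5.78 in FF at 0, 3 and 18 h. Oligodendrocyte markers had a median of 0.69, with 4 of 5 higher in both, and array means of 7.04 to 7.71 in FFPE and 8.58 to 9.15 in FF. Striatal markers had a median of -0.43, with 6 of 6 lower in both. Markers of cortical and hippocampal excitatory neurons had a median of 0.27, with 5 of 6 higher in both and array means of 6.80, 7.15 and 6.83 in FFPE and 7.73, 8.04 and 7.94 in FF. Against 3 h, 2 of these 6 were higher and 2 lower in both preservations at 18 h, against 25.6% and 25.7% of all genes. Hepatocyte markers had a median of -1.65 (-0.46 in FFPE and -2.58 in FF), with 11 of 12 lower in both, so the FFPE arrays differed in this group too, and leaving out the FF array at 0 h does not remove it. The 4 neuron markers had a median of 0.11. The part of these marker groups in the differences of the 10 genes was not tested.

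At 18 h against 0 h in brain, 8 of the 10 genes were again higher in both preservations, against 29% of all genes, and the median was 0.19. Fosl2 was lower in both, with -0.32 in FFPE and -0.33 in FF. No member passed the test, which 0.0306% of genes passed, and Fosl2 alone had an unadjusted p under 0.05, as 1.8% of genes did in the lower direction. Without the FF brain array at 0 h, the median was 0.17 and 8 of the 10 genes were above 0, against 9 with it. Set against 3 h, the 18 h value was lower in both preservations for 8 of the 10 genes, against 25.7% of all genes, with Btg2 and Junb lower in FF and higher in FFPE. Again no member passed, against 0.0153% of genes, and 3 were lower at an unadjusted p under 0.05, against 1.68% of genes. A highest value at 3 h in both series was seen for Arc, Fos, Fosl2, Egr1, Egr2, Dusp1 and Nr4a1, or 7 of 10, against 13.1% of all genes. The comparisons with 0 h and with 3 h share arrays, so these counts do not stand for separate evidence.

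Related genes were set beside the 10 at 3 h against 0 h in brain, as a description with no test of the difference. Of all genes tested, 28.9% were higher and 22.8% lower in both preservations, and 0.0765% passed. Of 21 other immediate early transcription factors, 19 were tested, none passed, and 6 were higher and 1 lower in both preservations, with a median of 0.04. The highest were Nr4a2 and Nr4a3, the relatives of Nr4a1. Nr4a2 had 6.76, 7.24 and 6.61 in FFPE brain and 5.92, 6.57 and 6.14 in FF brain, a fitted difference of 0.57 ± 0.15 with an adjusted p of 0.4695. Nr4a3 had 7.11, 7.62 and 7.15 in FFPE brain and 7.87, 8.34 and 7.83 in FF brain, a difference of 0.49 ± 0.14 with an adjusted p of 0.5505. All 3 Nr4a genes were thus highest at 3 h in both brain series. Of 14 other MAP kinase feedback genes, 12 were tested and none passed, 2 were higher and 4 lower in both, and the median was -0.12. Rgs2, which damps signals of Gq-coupled receptors, had -0.38 (-0.35 in FFPE and -0.41 in FF). The phosphatase gene Dusp8 had -0.33 (-0.59 in FFPE and -0.07 in FF), and Dusp16 had -0.20 with opposite directions, -0.73 in FFPE and 0.32 in FF. Of 26 other inducible effectors, 24 were tested and none passed, 9 were higher and 4 lower in both, and the median was 0.06, with 0.33 for the kinase Sgk1 and -0.33 for the stress gene Gadd45b (-0.57 in FFPE and -0.10 in FF). Of 22 upstream MAP kinase, SRF and CREB genes, 15 were tested and none passed, with 2 higher and 7 lower in both and a median of -0.02.

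The same comparisons were made in liver. At 3 h against 0 h, 5 of the 10 genes were higher in both preservations, against 27.5% of all genes, and Arc and Fos were lower in both. No member passed, against 0.245% of genes, and the median was 0.04. Dusp1, induced in liver by glucocorticoids and stress, had 6.57, 6.76 and 6.15 in FFPE liver and 7.45, 8.27 and 7.83 in FF liver. Its fitted difference of 0.51 ± 0.18 had an adjusted p of 0.377, and it was the only member with an unadjusted p under 0.05, against 4.27% of genes in that direction. Dusp6 had 6.62, 7.01 and 6.19 in FFPE liver and 7.89, 8.14 and 7.96 in FF liver. Both phosphatase genes were highest at 3 h in both liver series. Btg2 had 5.27, 5.40 and 5.74 in FFPE liver and 6.06, 5.29 and 5.83 in FF liver, so its 3 h difference was 0.13 in FFPE and -0.77 in FF.

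Several genes were dim in liver. Fos stood at 4.06 to 4.08 in FFPE and 4.05 to 4.48 in FF liver, and Fosl2 at 4.26 to 4.33 in FFPE and 4.42 to 4.55 in FF liver, below the array median throughout. Junb lay at 4.32 to 4.45 in FFPE and at 4.23 to 4.81 in FF liver. Nr4a1 lay at 5.46 to 5.67 in FF liver but at 4.25 to 4.59, below the array median, in FFPE liver. The files hold no detection calls, so it is not known whether such dim signals exceeded background. Markers of liver's other cells moved as well at 3 h, with a median of -1.20 for 9 Kupffer cell genes, -0.69 for 5 sinusoidal endothelial genes and 1.30 for 3 blood genes. Their part in the members' values was not tested.

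At 18 h, the gene Egr1 rose in liver, the only 1 of the 10 genes to pass the test in that direction, against 3.61% of all genes. Egr1 had 5.50, 5.53 and 5.74 in FFPE liver and 4.95, 5.0 and 5.92 in FF liver at 0, 3 and 18 h. The fitted difference from 0 h was 0.61 ± 0.18 with an adjusted p of 0.03748, made up of 0.24 in FFPE and 0.97 in FF. The call was lost when any 1 of 8 arrays was left out: the difference was 0.417 (adjusted p 0.309) with FF liver at 0 h left out, 0.245 (adjusted p 0.3692) with FF liver at 18 h left out, and without any 1 of the 6 brain arrays it was the same 0.605 with an adjusted p of 0.06056 to 0.06392. It was also lost in the fit of the 6 liver arrays alone (adjusted p 0.1199), with each array centred on its median (0.05306) and with no filter on dim probe sets (0.05369). Being 1 gene, it says nothing of the 10 as a group. Higher values in both preservations were seen for Egr1 and Junb, or 2 of 10, against 26.4% of all genes. Against 3 h, no member passed at 18 h, while 10.3% of all genes did; at an unadjusted p under 0.05, 2 were higher and 2 lower, against 8.18% and 16.4% of all genes. The gap between 3′ and 5′ probe sets of Gapdh, a sign of RNA breakdown, was 1.04, 1.63 and 1.77 in FFPE liver and 0.03, 0.82 and 1.14 in FF liver over the same times. That of Actb was -0.12, -0.01 and -0.18 in FFPE liver and 1.09, 2.00 and 1.90 in FF liver, so the gaps grew in FF for both genes and in FFPE for Gapdh alone. Cell type markers differed as well at 18 h: the sinusoidal endothelial genes had a median of 0.47, with 4 of 5 higher in both preservations and 2 called higher. The Kupffer cell genes had a median of -0.40, with 6 of 9 lower in both and 3 called lower, and the blood genes 1.09, with 2 of 3 called higher. Of all genes, 26.4% were higher and 33.2% lower in both preservations, and 472 and 1421 of 13073 were called higher and lower. The part of RNA breakdown and of these cell types in the Egr1 value was not tested.

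In the related lists, 3 of 24 inducible effectors and 2 of 15 upstream genes passed in liver at 18 h, against 14.5% of all genes in either direction. Ccn2, a matricellular target of YAP, rose by 0.95 ± 0.15 (adjusted p 0.001652), with 5.72, 6.17 and 6.59 in FFPE liver and 6.91, 7.11 and 7.95 in FF liver. Plk2, a kinase induced in an immediate early manner, rose by 0.63 ± 0.17 (adjusted p 0.02311). Mcl1, an anti-apoptotic BCL-2 relative, was -0.71 ± 0.15 (adjusted p 0.007116), with 8.96, 8.75 and 8.23 in FFPE liver and 8.53, 8.09 and 7.85 in FF liver. Among upstream genes, Atf1, a CREB relative, fell by 1.23 ± 0.23 (adjusted p 0.004184) and the kinase gene Map2k1 by 0.59 ± 0.17 (adjusted p 0.03739). None of the 19 other transcription factors and none of the 12 feedback genes passed in this comparison.

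**Figure D3:**
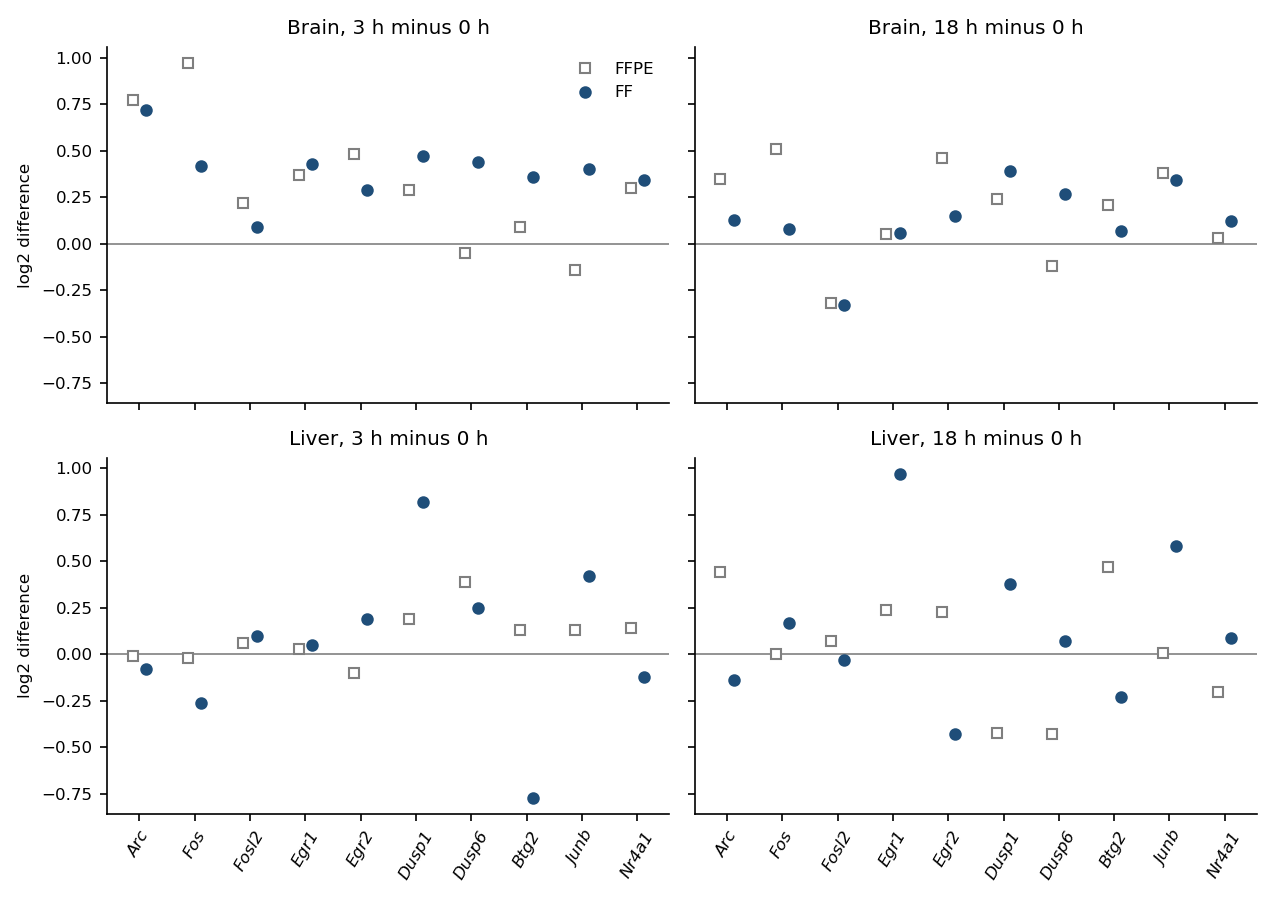
Difference in log2 intensity from 0 h (y axis) for each gene (x axis) in brain (top) and liver (bottom) at 3 h (left) and 18 h (right), with FFPE as open squares and FF as filled circles, 1 array pair per point. In brain at 3 h, 8 FFPE and all 10 FF points lie above 0, while liver points spread to both sides and the FFPE and FF points of Egr1 at 18 h are 0.24 and 0.97.

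Whether the tissues differed in their change was tested by the interaction of tissue and time. For the change at 3 h, none of the 10 passed, against 0.0153% of genes, with a median difference of -0.33 for liver minus brain. Fos had -0.84 ± 0.23 (adjusted p 0.4607) and Arc -0.79 ± 0.23 (adjusted p 0.4775), the only 2 members with an unadjusted p under 0.05, against 4.4% of genes in that direction. For the change at 18 h, none passed either, against 4.48% of genes, and Egr1, at 0.55 ± 0.25 with an adjusted p of 0.2488, was the only member with an unadjusted p under 0.05, against 5.54% of genes in that direction. A difference in response between the tissues was therefore not shown for any member.

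Levels were also set side by side between tissues. In FF tissue all 10 genes were lower in liver than in brain, against 37.5% of all genes. This count supports nothing about the group, because Fos and Fosl2 were below the array median on all liver arrays and Egr2 on all FF liver arrays, and they were tested through the arrays on which they were bright. The 5 genes at or above the median on all 12 arrays were Arc, Egr1, Dusp1, Dusp6 and Btg2. All 5 were lower in FF liver when only genes of that kind were tested, against 2596 of those 6680 genes. The fitted differences of the 5 members ran from -0.63 ± 0.14 for Dusp6 to -5.75 ± 0.14 for Egr1. For every member the 3 FF liver values lay below the 3 FF brain values. In FFPE tissue 8 of the 10 were lower in liver, against 29% of all genes. Of the 5 members, 4 were lower, against 1782 of those 6680 genes. Egr1 differed by -5.19 ± 0.14 in FFPE. Dusp6 was at 0.28 ± 0.14 (adjusted p 0.1062) and Junb at -0.32 ± 0.15 (adjusted p 0.07026), so these did not pass. FFPE liver and brain values of Dusp6 overlapped.

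The preservation difference was unequal among the members. In brain, FFPE was lower than FF for 9 of the 10 genes, all but Egr1, against 53.4% of all genes tested, and the median was -1.92 against -0.42 for all genes. Low values in FFPE brain were not particular to the members. The median was -1.70 for 5 oligodendrocyte genes, -1.54 for 24 other inducible effectors and -1.52 for 4 neuron genes. It was -0.92 for 12 other MAP kinase feedback genes and -0.48 for 19 other immediate early transcription factors. With each array centred on its median, which moved the median of all genes to -0.62, all 10 members were called lower, against 7796 of 13073 genes. The largest differences among the members were those of the transcription factor genes Fos, at -3.10 ± 0.13, Junb, at -2.89 ± 0.15, and Nr4a1, at -2.68 ± 0.12. Fos had 5.97, 6.94 and 6.48 in FFPE against 9.40, 9.82 and 9.48 in FF brain, which makes differences of -3.43, -2.88 and -3.00 by time, and the FFPE and FF values did not overlap. Dusp6 followed at -2.30 ± 0.14, Dusp1 at -2.04 ± 0.15 and Btg2 at -1.79 ± 0.16. The second probe set of Btg2 gave -0.42 ± 0.13, the same as the median of all genes. The second probe set of Fosl2 was higher in FFPE brain, at 0.53 ± 0.14 (adjusted p 0.003806 with every probe set tested), opposite to its main probe set. Junb lay below the array median on 2 of the 3 FFPE brain arrays. Egr1 was at -0.26 ± 0.14 (adjusted p 0.1065), nearer 0 than the median gene. The calls of Arc (-0.37 ± 0.13), Fosl2 (-0.33 ± 0.11) and Egr2 (-0.88 ± 0.16) depended on scaling: after quantile normalization they were 0.478, 0.564 and 0.006, with the calls of Arc and Fosl2 then higher in FFPE. In that setting 2 members were called higher and 6 lower, against 4516 and 5622 of 13073 genes. Without the FF brain array at 0 h, 7 genes were called lower, and Arc (-0.325, adjusted p 0.103) and Fosl2 (-0.310, adjusted p 0.06385) were not.

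In liver, FFPE was lower than FF for 3 genes, Dusp6 (-1.39 ± 0.14), Dusp1 (-1.36 ± 0.15) and Nr4a1 (-1.14 ± 0.12), against 43.5% of all genes, and higher for 2, Egr2 (1.64 ± 0.16) and Arc (0.82 ± 0.13), against 27.8%. The median was -0.20, beside -0.17 for all genes. Nr4a1 stood at 4.25 to 4.59 in FFPE liver, below the array median, a signal not known to exceed background. Egr2 had 5.59, 5.49 and 5.82 in FFPE against 4.07, 4.26 and 3.64 in FF liver, the FF values being below the array median. Its second probe set was also higher in FFPE, at 0.87 ± 0.12. Arc had 5.96, 5.95 and 6.40 in FFPE against 5.36, 5.28 and 5.22 in FF liver. With each array centred on its median, 7 members were lower and 2 higher in FFPE liver, against 6630 and 2760 of 13073 genes. FFPE and FF RNA also went through different extraction and labelling kits, so preservation and kit cannot be told apart.

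In a contrast chosen after the data were seen, the FFPE minus FF difference was higher in liver than in brain for 9 of the 10 genes, all but Fosl2, against 36.4% of all genes. The members' median was 1.36, beside 1.45 for 6 striatal genes, 1.25 for 4 neuron genes and 0.81 for 24 other inducible effectors. It was 0.26 for 19 other immediate early transcription factors, 0.13 for 12 other feedback genes and -1.24 for 5 sinusoidal endothelial genes. After quantile normalization 6 members were higher and 1, Fosl2, was lower (-0.893), against 3140 higher and 2852 lower of 13073 genes. The median of all genes then moved to -0.004, against 0.183 as deposited. Leaving out 1 array gave 7 to 9 genes higher. Of the 5 genes at or above the median on all 12 arrays, Btg2 had 1.54 ± 0.23, Arc 1.19 ± 0.19, Dusp6 0.91 ± 0.20, Dusp1 0.68 ± 0.21 and Egr1 0.56 ± 0.20. After quantile normalization Arc, Dusp1 and Egr1 no longer passed. Fos and Junb were at 4.05 to 4.81 in liver, signals not known to exceed background, so their values in this contrast rest on brain. Nr4a1 was below the array median on the FFPE liver arrays, a signal also not known to exceed background.

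**Figure D4:**
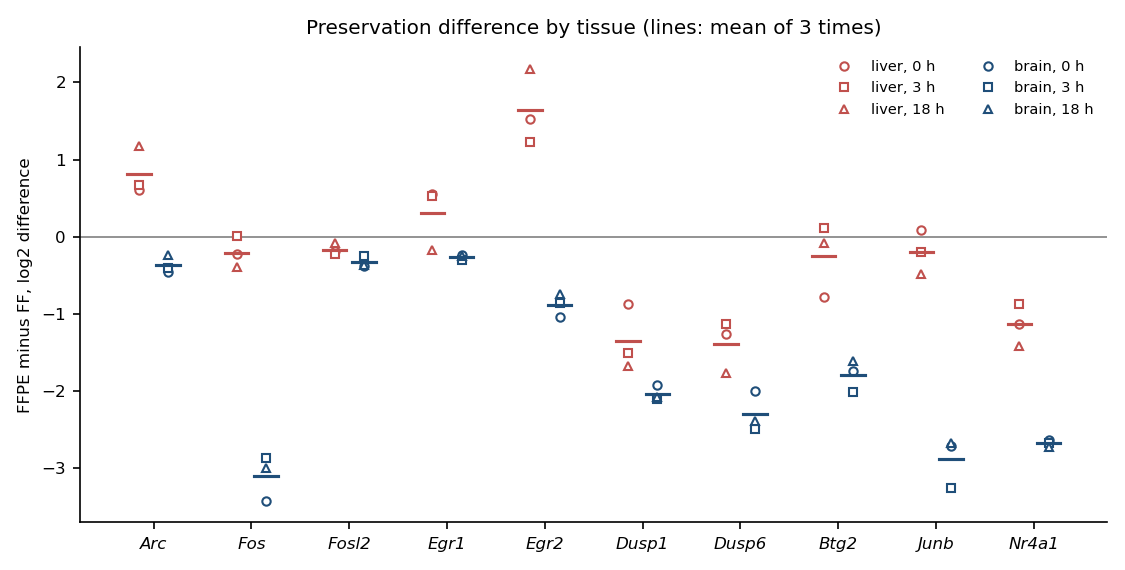
FFPE minus FF difference in log2 intensity (y axis) for each gene (x axis), with liver left of brain, open symbols for the 3 times and a line at their mean. Fos, Junb and Nr4a1 in brain lie near -3 while Arc, Fosl2 and Egr1 lie near 0, and after quantile normalization Arc and Fosl2 in brain lie above 0.

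Ordered by mean level over the 3 times, Fos stood at 9.57 in FF brain, 6.46 in FFPE brain, 4.28 in FF liver and 4.07 in FFPE liver, where the liver pair did not pass the test of their difference. Egr1 had 11.04 in FF brain and 10.78 in FFPE brain, then 5.59 in FFPE liver and 5.29 in FF liver, and neither neighbouring pair of preservations passed. Nr4a1 had 9.45, 6.77, 5.57 and 4.43 in FF brain, FFPE brain, FF liver and FFPE liver, with both pairs of preservations past the test. Its FFPE liver values were below the array median. Dusp1 and Dusp6 had another order, with FF liver second: Dusp1 had 9.63 in FF brain, 7.85 in FF liver, 7.59 in FFPE brain and 6.49 in FFPE liver, and Dusp6 had 8.63, 8.0, 6.32 and 6.61 in the same groups. The FF liver and FFPE brain values of Dusp1 overlapped. Junb had 7.58 in FF brain and between 4.37 and 4.69 in the other 3 groups, where FF liver values overlapped those of FFPE brain and of FFPE liver.

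For each member, the genes whose profile over the 12 arrays was most like it were found by Pearson's r. For every gene, the mean of each tissue and preservation series was first subtracted. The r values therefore follow differences between times within a series, and not those between tissues or preservations. Fos was closest to Etv1 (0.954), Cryab (0.940) and Septin8 (0.932). Egr1 was closest to Bicdl1 (0.978), and Arc to Enah (0.942). Dusp1 was closest to Pi4k2a (0.952), Dusp6 to Notum (0.950) and Fosl2 to Dner (0.952). The other members were left out of each search, so it cannot show how alike the members were to each other.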

How the data were processed

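RNA from 12 tissue samples (2 tissues, 2 preservations, 3 times, 1 array each) was hybridised to Affymetrix MG-430 PM arrays. The authors deposited log2 intensities for each probe set. RMA and Affymetrix Expression Console are named in the submitters' processing notes, and whether all arrays were processed together is not given in the sources used here. FFPE and FF RNA were extracted, amplified and labelled with different kits, per the labels' protocols. Of 45141 probe sets, 104 were controls, 28898 had 1 gene symbol, 551 several and 15588 none, and only those with 1 symbol were used. The brightest probe set by mean stood for each gene. The 13073 genes tested reached their array's median on 3 or more arrays. One limma 3.58.1 model (R 4.3.3) had 8 coefficients, a mean for each tissue and preservation and a change at 3 h and at 18 h for each tissue, which leaves 4 residual degrees of freedom. Its spread is the disagreement of FFPE and FF arrays about the change over time (typical SD 0.156), so p-values measure that and not the spread between animals. P-values were adjusted by Benjamini-Hochberg over all genes tested, with a threshold of 0.05. SE is the model's standard error. The number of arrays limits the precision. The fit was tested on simulated data. Promoter windows came from RefSeq (GRCm38.p6), and no coordinates of probe sets were used. The text names all 10 members, the genes of each related list with the largest fitted differences or past the threshold, and the genes most like a member. The members, lists and tests were chosen with earlier results of these data known. Alternatives were quantile normalization, centring on array medians, other probe set summaries, other filters, robust spread, 1 tissue alone and leaving out each array.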

Additional observations from a re-analysis of the deposited data

Results flagged for a closer look

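In a contrast chosen after the data were seen, the FFPE minus FF difference of 9 of the 10 genes was higher in liver than in brain in limma's interaction test. Of the 13073 genes tested, 4760 (36.4%) were called higher and 2412 lower. The direction was not particular to the members. Of 6 striatal genes, 5 were called higher and 1 lower, of 4 neuron genes 3 and 1, and of 24 other inducible effectors 16 and 3. Of 19 other immediate early transcription factors, 7 were called higher and 2 lower, and of 12 other feedback genes 3 and 3. The 5 sinusoidal endothelial genes were all called lower. The value in liver minus that in brain was 2.90 ± 0.19 for Fos (adjusted p 1.662e-07), 2.69 ± 0.21 for Junb (5.185e-07), 2.53 ± 0.23 for Egr2 (1.768e-06), 1.54 ± 0.18 for Nr4a1 (1.403e-05), 1.54 ± 0.23 for Btg2 (0.0001138), 1.19 ± 0.19 for Arc (0.0001879), 0.91 ± 0.20 for Dusp6 (0.002408), 0.68 ± 0.21 for Dusp1 (0.0139) and 0.56 ± 0.20 for Egr1 (0.03254). The median of all genes tested was 0.183. After quantile normalization that median was -0.004, 6 of these 9 still passed, Arc (0.440), Dusp1 (0.426) and Egr1 (0.250) did not, and Fosl2 was lower (-0.893). Fos lay below the array median on all liver arrays, Junb on most, Egr2 on the FF ones and Nr4a1 on the FFPE ones. These signals are not known to exceed background, so the values of Fos and Junb in this contrast rest on brain.

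The change at 3 h in liver and in brain went opposite ways on both pairs of arrays for Arc and Fos. The difference was -0.79 ± 0.23 for Arc (adjusted p 0.4775) and -0.84 ± 0.23 for Fos (adjusted p 0.4607), so neither passed the test of the difference. The liver differences were -0.01 in FFPE and -0.08 in FF for Arc, and -0.02 in FFPE and -0.26 in FF for Fos, and Fos lay below the array median in all liver arrays. With 1 array in each condition, no array could be set against replicates of its own group.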

How the results depend on the processing

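The counts of members past the threshold at 3 h and 18 h against 0 h and at 18 h against 3 h in brain, at 3 h in liver, and for the change at 3 h between tissues stayed at 0 under every alternative run. At 18 h against 0 h in liver the count was 1 as reported and 0 with arrays centred on their medians, with no filter and with the 6 liver arrays alone, and 0 to 1 when 1 array was left out. At 18 h against 3 h in liver it was 0 as reported, 1 with a filter in all 12 arrays, and 0 to 2 when 1 array was left out; for the liver minus brain change at 18 h it was 0 to 1, the 1 being without the FFPE liver array at 18 h. The filter in all 12 arrays left 5 members to test, which lowered the counts to 5 and 4 for liver against brain in FF and FFPE, and to 4 and 3 for FFPE against FF in brain and liver. For FFPE against FF in liver the count was 9 with arrays centred on their medians, where 7 were lower. Leaving out 1 array gave 10 for liver against brain in FF, 8 to 10 in FFPE, 7 to 10 for FFPE against FF in brain, 5 to 6 in liver, and 7 to 9 for the contrast of these between tissues, which was 9 as reported and 7 (6 higher, 1 lower) after quantile normalization.

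For FFPE against FF in brain, quantile normalization turned Arc to 0.478, Fosl2 to 0.564 and Egr2 to 0.006, and the mean of all probe sets turned Fosl2 to 0.097. It moved the median of all genes to -0.115, against -0.417 as deposited and -0.62 with arrays centred. At 3 h in brain, Dusp6 ran from -0.025 (without the FF array at 0 h) to 0.415 and Junb from -0.150 (without the FF array at 3 h) to 0.410 when 1 array was left out, and the other 193 of 195 member values under alternatives were above 0. The cause of these changes was not tested. Of 78 member differences that were neither called nor at 3 h in brain, 38 changed sign and 13 passed the threshold under at least 1 alternative. No paired analysis was possible because each condition had 1 array and the labels give no replicate numbers. Dim liver signals limit what can be said of Fos, Fosl2 and Junb there, of Nr4a1 in FFPE liver and of Egr2 in FF liver.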
